A study of Mus musculus with 30 samples.

Results

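The mitochondrial respiratory chain and ATP synthase were followed at the RNA level through 101 genes of 53974 in the deposited expression table. They were chosen by symbol alone: nuclear genes of the Nduf, Sdh, Uqcr, Cox4 to Cox8 and Atp5 series (88 genes) and the protein genes of mitochondrial DNA (13 genes). Another 8 symbols ending in -ps, a suffix used for pseudogenes, were left out by the rule; Ndufb1-ps is among them, and whether any of the 8 is a working gene was not checked. By complex, the nuclear members were 38 genes of complex I, 4 of complex II, 8 of complex III, 21 of complex IV and 17 of ATP synthase, with Ndufa4 and Ndufa4l2 placed in complex IV.

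Electrons enter the chain at complex I (from NADH) or complex II (from succinate), pass through complex III and reach oxygen at complex IV, and the proton gradient this builds drives ATP synthase. Most subunits are encoded in the nucleus and imported, but the hydrophobic cores of complexes I, III, IV and ATP synthase are encoded by mitochondrial DNA, which is transcribed as long transcripts from both strands and then cut. Neural progenitors of the embryonic forebrain rely largely on glycolysis, and oxidative metabolism gains weight as they differentiate. Several complex IV subunits exist as paired genes, one used widely and one typical of lung, muscle or testis.

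RNA was measured in neural stem/progenitor cells (NSPCs) of C57BL/6 mice, isolated from the forebrain of E13.5 embryos and grown with EGF and FGF (passages P1-P3, treated at passage 2 to 3). The 3 NSPC groups of 4 libraries each received DMSO (control), 10 mM crotonate or 1 µM MS-275 for 24 h. Crotonate is a short-chain fatty acid that feeds histone lysine crotonylation (Kcr), and MS-275 is an inhibitor of class I histone deacetylases. The vehicle of crotonate is not given in the sources used here. One library came from C57BL/6 forebrain of the same age (n = 1, so no test), and forebrain explants of ICR mice, 3 control and 3 crotonate libraries of polyA RNA, are given as the authors' deposited comparison without values per library. The dose and duration in the explants are not given in the sources used here, and the direction of that comparison comes from the name of the deposited table. Labels do not say whether NSPC replicates were separate cultures or animals, so p-values measure the spread between these libraries. Progenitor and radial glia markers (11 of 11 measured) summed to 9732 to 10268 TPM in control NSPCs and to 2567 TPM in the forebrain. Vim and Fabp7 made up most of that sum (3454 to 3868 and 4781 to 5122 TPM in the controls, 766 and 787 in the forebrain). Pax6, Hes5, Msi1, Prom1 and Notch1 were instead higher in the forebrain, Pax6 at 112 TPM against 19.8 to 29.1 in the controls. In these bulk samples fewer cells of a type and less RNA per cell cannot be told apart.

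Promoter sequence is shown for 5 members on which the results turn: Cox6b2, which rose and gained acylation peaks; Cox7a1, which rose without a peak; Ndufv3, the complex I gene that rose most; Atp5g1, which fell most with MS-275; and Cox6a1, which rose with crotonate and holds several motifs of respiratory genes. Each is the 250 bases before the start, 5′ to 3′ on the gene's strand, from RefSeq (GRCm38.p6), which had an entry for 68 of the 88 nuclear members. The windows are chr7:4753095-4753344 (minus strand), chr7:30183921-30184170 (plus strand), chr17:31519865-31520114 (plus strand), chr11:96075632-96075881 (minus strand) and chr5:115348959-115349208 (minus strand). Capitals mark matches to any motif searched.
Cox6b2: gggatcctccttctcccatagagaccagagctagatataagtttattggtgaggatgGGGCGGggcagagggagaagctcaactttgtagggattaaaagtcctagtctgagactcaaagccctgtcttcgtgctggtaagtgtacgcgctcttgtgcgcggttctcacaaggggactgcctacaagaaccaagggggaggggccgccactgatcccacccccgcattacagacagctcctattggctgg
Cox7a1: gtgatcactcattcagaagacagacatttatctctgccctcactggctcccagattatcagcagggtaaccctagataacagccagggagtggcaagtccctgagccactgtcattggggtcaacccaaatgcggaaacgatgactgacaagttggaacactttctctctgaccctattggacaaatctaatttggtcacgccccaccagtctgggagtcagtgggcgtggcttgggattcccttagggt
Ndufv3: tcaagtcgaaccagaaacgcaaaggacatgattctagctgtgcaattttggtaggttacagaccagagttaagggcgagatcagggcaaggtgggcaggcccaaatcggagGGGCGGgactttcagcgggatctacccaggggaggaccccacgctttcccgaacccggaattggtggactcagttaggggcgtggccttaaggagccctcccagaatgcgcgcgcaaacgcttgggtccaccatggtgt
Atp5g1: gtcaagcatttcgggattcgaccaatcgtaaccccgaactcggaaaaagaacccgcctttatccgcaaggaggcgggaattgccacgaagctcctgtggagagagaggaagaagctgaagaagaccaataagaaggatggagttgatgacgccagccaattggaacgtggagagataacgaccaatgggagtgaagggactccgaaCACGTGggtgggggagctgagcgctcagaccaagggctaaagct
Cox6a1: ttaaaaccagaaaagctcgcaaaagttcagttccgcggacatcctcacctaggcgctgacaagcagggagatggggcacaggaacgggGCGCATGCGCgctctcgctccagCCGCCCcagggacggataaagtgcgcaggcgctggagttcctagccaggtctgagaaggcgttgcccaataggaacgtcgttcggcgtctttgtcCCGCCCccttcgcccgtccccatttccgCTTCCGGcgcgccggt
The motifs were searched on both strands over the 250 bases before and 50 after the start: the NRF1 site (GCATGCG with GC before and C after it), its inner part (GCATGCG alone, which every whole site holds), GABP/ETS (CCGGAAG), the Sp1 GC box (GGGCGG), YY1 (AAGATGGCG), CRE (TGACGTCA), the E box (CACGTG) and a part of the REST site (TTCAGCACC). In Cox6a1 the whole NRF1 match began 162 bases before the start, the GABP/ETS match 16 bases before it, and GC boxes stood at 139 and 44 bases before it. Cox6b2 and Ndufv3 each held 1 GC box, 193 and 139 bases before the start. Atp5g1 held 1 E box 44 bases before the start, and the shown part of Cox7a1 held none of the motifs.

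Over all 73 promoter entries of members, 6.85% held the whole NRF1 site (5 genes: Atp5g2, Atp5k, Cox6a1, Ndufa11 and Uqcrc1) against 0.971% of the 32851 promoters in the table. GABP/ETS matches stood in 23.3% against 8.86% and YY1 matches in 9.59% against 1.40%. GC boxes stood in 39.7% against 35.7%, CRE matches in 5.48% against 1.79%, E boxes in 9.59% against 7.15%, the inner NRF1 part in 15.1% against 3.58% and the REST part in 1.37% against 0.371%. NRF1 and GABP are transcription factors known for respiratory genes. A match is a run of letters, not a measured binding site.

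Of the 101 members, 93 reached 1 TPM in 4 or more of the 12 NSPC libraries and were tested (80 nuclear, all 13 mitochondrially encoded). The 8 untested ones were the tissue-restricted Cox6a2, Cox6c2, Cox7b2, Cox8b, Cox8c and Ndufa4l2 and the copies Ndufa11b and Ndufs6b. TPM is a transcript level per length, expressed as a share of the library, and the changes below are log2 fold changes of TPM + 1, each tested with limma over all 14857 genes that passed.

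With crotonate, 20 of the 80 tested nuclear members rose and 12 fell at an adjusted p of 0.05, and their median log2 fold change was 0.03. Over all genes tested 48.1% were called (32.3% higher and 15.9% lower) and the median was 0.09. With MS-275, 18 nuclear members rose and 42 fell, with a median of -0.14. The background there was 65.1% (37.4% higher and 27.6% lower) with a median of 0.08. Compared directly, 7 nuclear members were higher and 41 lower with MS-275 than with crotonate (median -0.15), against 46.7% of all genes (19.3% higher and 27.4% lower, median -0.04). Summed markers of neural cell types were higher with MS-275 as well. Progenitor markers reached 13717 to 14377 TPM, mostly through Vim (5839 to 6156) and Fabp7 (6550 to 7171). Of 11 progenitor markers 4 were called higher and 3 lower. Nes (225 to 272 TPM against 346 to 396 in the controls), Pax6 and Hes1 lay below every control. Astrocyte markers (5 of 5 measured) summed to 135 to 166 TPM against 73.7 to 88.1 in the controls. Oligodendrocyte lineage markers (7 of 7) summed to 2872 to 3152 TPM against 1701 to 1904. Olig1 alone held 2162 to 2406 against 1065 to 1245 of these sums. Neuron markers (10 of 10) summed to 1038 to 1089 TPM against 901 to 981, mostly through Gap43 (651 to 699) and Map2 (307 to 336). Of 7 tested neuron markers 6 were called higher and 0 lower. The part of these cell type markers in the nuclear counts was not tested.

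The direction of the crotonate balance depended on the scaling. Rescaling by median-of-ratios size factors shifted the all-gene median by -0.10 and gave 10 higher and 29 lower nuclear members, while quantile normalization shifted it by -0.13 and gave 30 and 4. The higher share of the calls was thus 62.5%, 25.6% and 88.2% under the 3 scalings, and 67.1%, 47.7% and 45.6% over all genes. For MS-275 lower calls outnumbered higher ones under each, at 12 and 49 with median-of-ratios and 22 and 30 with quantile normalization (higher share 30.0%, 19.7% and 42.3%). Over all genes the higher share with MS-275 was 57.5%, 50.4% and 46.5%, so under quantile normalization the members were near the background. Relative to the all-gene median the nuclear members stood at -0.06, -0.07 and 0.14 with crotonate in the order of the table as deposited, median-of-ratios scaling and quantile normalization. With MS-275 they stood at -0.22, -0.22 and 0.01. MS-275 against crotonate gave 8 and 33, and 8 and 38.

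As a share of the library, the nuclear members together took 2.98% to 3.19% of TPM in control libraries, 3.09% to 3.17% in crotonate libraries and 2.78% to 2.88% in MS-275 libraries. The MS-275 libraries lay below every control, and the crotonate libraries lay inside the control range. Most of the drop was ATP synthase, whose nuclear members took 1.15% to 1.252% in control libraries, 1.12% to 1.17% in crotonate libraries and 1.01% to 1.06% in MS-275 libraries. Complex IV went from 0.766% to 0.812% in the controls to 0.824% to 0.865% with crotonate, without overlap, and 0.734% to 0.759% with MS-275. Complex III was 0.291% to 0.302%, 0.309% to 0.320% and 0.273% to 0.286% in the same order, and none of these ranges overlap. Complex I was 0.681% to 0.723%, 0.714% to 0.738% and 0.681% to 0.707%, so each treatment overlapped the controls while the crotonate and MS-275 libraries did not overlap each other. Complex II, the smallest, was 0.0901% to 0.0964% in the controls and 0.0837% to 0.0880% with MS-275.

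**Figure D1:**
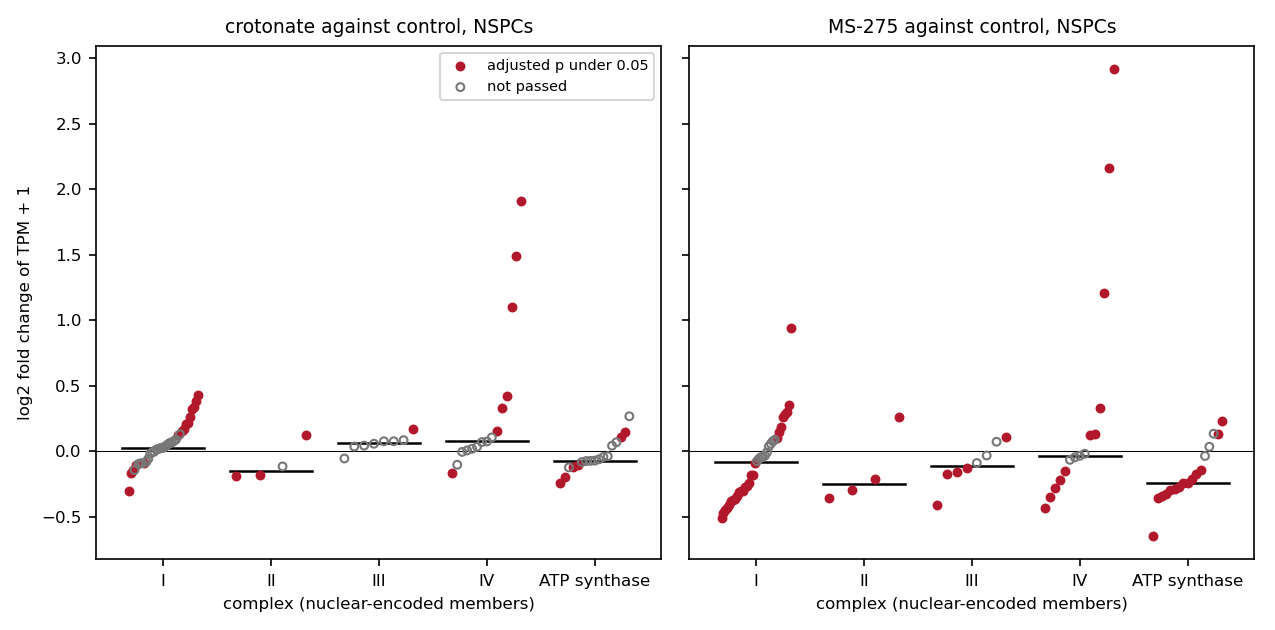
Log2 fold change of TPM + 1 of each tested nuclear-encoded member, by complex, for crotonate (left) and MS-275 (right) against control NSPCs. Filled points passed an adjusted p of 0.05 in limma, open points did not, and the horizontal bars are medians (ATP synthase -0.07 with crotonate and -0.24 with MS-275); the 3 complex IV genes far above the rest are Cox4i2, Cox6b2 and Cox7a1.

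Complex I takes electrons from NADH. Of its 36 tested nuclear members, 10 rose and 5 fell with crotonate, and 8 rose and 18 fell with MS-275. Over all genes 32.3% were higher and 15.9% lower with crotonate, so these crotonate counts are near the background, and 37.4% and 27.6% with MS-275. Ndufv3, a small accessory subunit of the NADH-oxidising arm, rose most under both. It was measured at 175, 171, 171 and 151 TPM in the controls, 224, 225, 223 and 224 with crotonate and 328, 313, 308 and 335 with MS-275. The 3 groups are fully separated. The log2 fold change was 0.43 (SE 0.05, adjusted p = 1.1e-05) with crotonate, 0.94 (SE 0.05, adjusted p = 3.7e-09) with MS-275 and 0.51 (adjusted p = 2.6e-06) between the treatments. Ndufb4c rose by 0.32 with crotonate and 0.18 with MS-275 (adjusted p = 3.3e-06 and 0.00014). Its relative Ndufb4 rose by 0.38 and 0.35 (adjusted p = 0.00034 and 0.00036). Ndufb4c spans 485 bases and Ndufb4 6767 bases, yet Ndufb4c reached 528 TPM at most and Ndufb4 62.0, and how reads were divided between these related genes is uncertain.

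Ndufc2, a small membrane-arm subunit, differed between the treatments. Controls ranged from 837 to 951 TPM and crotonate libraries from 816 to 929, while all MS-275 libraries were higher, from 1006 to 1098. Its log2 fold change was 0.28 (adjusted p = 0.00034) with MS-275, -0.01 (adjusted p = 0.90) with crotonate and 0.29 (adjusted p = 0.00054) for MS-275 against crotonate.

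The complex I genes that fell include subunits of the catalytic core, several of which hold iron-sulphur clusters. Ndufs8, one of those, was at 169, 172, 161 and 163 TPM in the controls, 155, 157, 155 and 156 with crotonate and 124, 119.6, 116 and 126 with MS-275. Again the groups do not overlap. It fell by 0.45 on the log2 scale with MS-275 (SE 0.03, adjusted p = 1.6e-07) and by 0.36 relative to crotonate (adjusted p = 4.4e-06). Ndufs1, the largest core subunit, ranged from 118 to 127 TPM in control, 122 to 128 in crotonate and 93.5 to 99.0 in MS-275 libraries (log2 fold change -0.34, adjusted p = 2.5e-06; 0.03 with crotonate, adjusted p = 0.55). Ndufs3, another core subunit, fell by 0.47 (adjusted p = 5.7e-06), and the accessory subunits Ndufb10 and Ndufa10 fell by 0.51 and 0.38 (adjusted p = 6.0e-06 and 1.9e-06) with MS-275. Ndufa5, also accessory, ranged from 103 to 125 TPM in control, 82.9 to 109 in crotonate and 76.3 to 105 in MS-275 libraries (log2 fold change -0.30 and -0.28, adjusted p = 0.043 and 0.048).

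The crotonate falls among these were small, and under quantile normalization Ndufs3, Ndufs8 and Ndufa5 did not pass (-0.11, -0.04 and -0.28, adjusted p = 0.13, 0.32 and 0.059). Ndufs3 fell by 0.15 (adjusted p = 0.039) and lost the call without control 1 or 2 or crotonate 2, 3 or 4 (adjusted p 0.057 to 0.11). Ndufs8 fell by 0.09 (adjusted p = 0.042) and lost it without control 1 or 2, any crotonate library or MS-275 2 (0.050 to 0.12). Ndufa5 lost it without control 1, 2 or 4 or crotonate 2, 3 or 4 (0.060 to 0.11). For MS-275 Ndufa5 lost it without any of 8 libraries (control 1, 2 and 4, MS-275 2 and 3, crotonate 2, 3 and 4, adjusted p 0.053 to 0.15), and also under quantile normalization (-0.21, adjusted p = 0.12).

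Complex II, succinate dehydrogenase, shares its reaction with the citrate cycle and has no mitochondrially encoded subunit. Its 4 members did not move together. Sdhb, the iron-sulphur subunit, was at 219.6, 215, 219 and 200.1 TPM in the controls, 185, 176, 188 and 198 with crotonate and 162, 163, 161 and 179 with MS-275. It fell by 0.19 (SE 0.05, adjusted p = 0.0051) and 0.36 (SE 0.05, adjusted p = 2.3e-05). Sdhd, a membrane anchor, fell by 0.18 and 0.29 (adjusted p = 0.0079 and 0.00017). Sdhc, the other anchor, rose by 0.13 and 0.26 (adjusted p = 0.031 and 0.00019). The crotonate call of Sdhc was lost without control 1, 2 or 3 or crotonate 1, 2 or 3 (adjusted p 0.051 to 0.090) and under median-of-ratios scaling (0.01, adjusted p = 0.84). Sdha, the catalytic flavoprotein, had a log2 fold change of -0.12 (adjusted p = 0.17) with crotonate and fell by 0.22 (adjusted p = 0.012) with MS-275.

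Complex III passes electrons from ubiquinol to cytochrome c. Of 8 nuclear members, Uqcrh alone passed with crotonate, and with MS-275 1 rose and 4 fell. Over all genes 32.3% were higher and 15.9% lower with crotonate, and 37.4% and 27.6% with MS-275. Uqcrb, a small subunit at the ubiquinone site, ranged from 497 to 514 TPM in control, 498 to 566 in crotonate and 347 to 398 in MS-275 libraries. The crotonate libraries overlapped the controls and the MS-275 libraries lay below them. It fell by 0.41 with MS-275 (SE 0.05, adjusted p = 7.5e-06) and by 0.48 relative to crotonate (adjusted p = 5.5e-06), while crotonate gave 0.08 (adjusted p = 0.21). Uqcrc2, a core protein, fell by 0.18 with MS-275 (adjusted p = 0.00048). Uqcrh, the hinge protein that binds cytochrome c1, rose by 0.17 with crotonate (adjusted p = 0.0036) and 0.11 with MS-275 (adjusted p = 0.023), the latter lost without control 4 or MS-275 1 or 2 (adjusted p 0.052 to 0.072). Neither rise passed under median-of-ratios scaling (0.05 and 0.04, adjusted p = 0.32 and 0.45).

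Complex IV, cytochrome c oxidase, held the 3 largest called rises of the whole set under both treatments, all in genes of its paired isoforms. Of these genes, Cox4i2 passed the filter through the treated libraries alone, so its call was fixed in advance and carries no weight. Of 15 tested nuclear members, Cox4i2 included, 6 rose and 1 fell with crotonate and 6 rose and 5 fell with MS-275. Over all genes 32.3% were higher and 15.9% lower with crotonate, and 37.4% and 27.6% with MS-275. The MS-275 counts of complex IV, at 40.0% and 33.3%, are thus near the background. Cox6b2, known as the testis isoform of subunit 6b, was at 69.4, 73.7, 73.8 and 86.4 TPM in the controls, 188, 220.2, 217 and 235 with crotonate, 179, 165, 163 and 198 with MS-275 and 8.21 in the forebrain. Every treated library lay above every control. It rose by 1.49 (SE 0.08, adjusted p = 6.3e-08) with crotonate and 1.21 (SE 0.08, adjusted p = 8.5e-08) with MS-275, and was lower by 0.28 with MS-275 than with crotonate (adjusted p = 0.015; log2 fold change -0.28). Its share of subunit 6b RNA (Cox6b1 and Cox6b2 together) went from 10.5% ± 1.16 (SD, n = 4) to 23.9% ± 1.30 with crotonate and 21.5% ± 1.53 with MS-275, and was 1.70% in the forebrain. The common Cox6b1 did not pass in either comparison (log2 fold change 0.07 and -0.02, adjusted p = 0.16 and 0.70), though under quantile normalization it was at 0.10 with MS-275 (adjusted p = 0.029).

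Cox7a1, the heart and muscle isoform of subunit 7a, was at 4.58, 1.86, 3.57 and 4.44 TPM in the controls, 6.93, 11.4, 8.31 and 8.06 with crotonate and 22.1, 9.77, 24.0 and 24.9 with MS-275. MS-275 2 stood apart from its group and inside the crotonate range, and all treated libraries lay above the controls. The rise was 1.10 (SE 0.28, adjusted p = 0.0067) with crotonate and 2.17 (SE 0.28, adjusted p = 2.3e-05) with MS-275, and 1.07 between them (adjusted p = 0.0081). Under quantile normalization the crotonate value was 0.69 (adjusted p = 0.071). Its share of subunit 7a RNA was 1.38% ± 0.514 in the controls, 3.09% ± 0.734 with crotonate and 8.18% ± 2.61 with MS-275. The common Cox7a2 fell by 0.22 with MS-275 (adjusted p = 0.0090; 0.073 under quantile normalization) and had 0.07 with crotonate (adjusted p = 0.39).

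Cox4i2, the isoform of subunit 4 known from lung and from cells at low oxygen, was close to 0 in the controls (0.194, 0.183, 0.182 and 0.385 TPM). It passed the filter through the treated libraries alone and so had to differ, and its tests support nothing beyond these levels. It reached 5.24, 3.67, 3.01 and 2.96 with crotonate and 7.14, 6.04, 11.3 and 9.74 with MS-275, with no overlap among the 3 groups. The log2 fold change, damped by the added 1 TPM, was 1.91 (SE 0.19, adjusted p = 5.6e-06) with crotonate and 2.92 (SE 0.19, adjusted p = 4.2e-08) with MS-275, and 1.01 between them (adjusted p = 0.00084). Even so it was 1.11% ± 0.332 of subunit 4 RNA with MS-275, against 0.459% ± 0.147 with crotonate and 0.0293% ± 0.0120 in the controls. Cox4i1 made up the rest and did not pass in either comparison.

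Summed markers of other cell types, some of them known for these isoforms, also differed between the libraries. Mural cell markers (8 of 8 measured) summed to 14.4 to 22.2 TPM in the controls, 33.2 to 40.3 with crotonate, 44.5 to 48.6 with MS-275 and 72.3 in the forebrain, with Higd1b at 0 in all 12 NSPC libraries and Vtn at 0 with crotonate. Notch3 alone held 13.6 to 21.6, 29.9 to 38 and 41.5 to 45.9 TPM of the NSPC sums, and none of the other 7 was above 1.37 TPM in any NSPC library. Muscle markers (8 of 8) summed to 4.93 to 16.4, 8.84 to 14.8 and 19.3 to 25.7 TPM in the NSPC groups, with Ckm at 0 throughout. Tnni1 carried the MS-275 sum (0.266 to 1.01 TPM in the controls and 13.0 to 16.9 with MS-275), while no MS-275 library was above the control range for Myh7, Actc1 or Acta1. Testis germ cell markers (6 of 6) summed to 1.46 to 2.50, 3.02 to 5.12 and 2.64 to 6.83 TPM, with Tnp1 at 0 throughout. Their part in the rise of Cox4i2, Cox7a1 and Cox6b2 was not tested.

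The other paired isoforms stayed rare. Ndufa4l2, the partner of Ndufa4 known to be induced by low oxygen, was at 0 to 0.658 TPM in the controls, 0 to 0.258 with crotonate, 0.277 to 2.59 with MS-275 and 7.10 in the forebrain, which is 1.71% of the Ndufa4 pair there. Cox6a2 ranged from 0.622 to 1.77 TPM in control, 0 to 0.440 in crotonate and 0 to 0.688 in MS-275 libraries, below the filter. Cox8b was above 0 in 4 of the 13 libraries and Cox7b2 in 1, and Cox8c was listed at 0 in all 13.

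**Figure D2:**
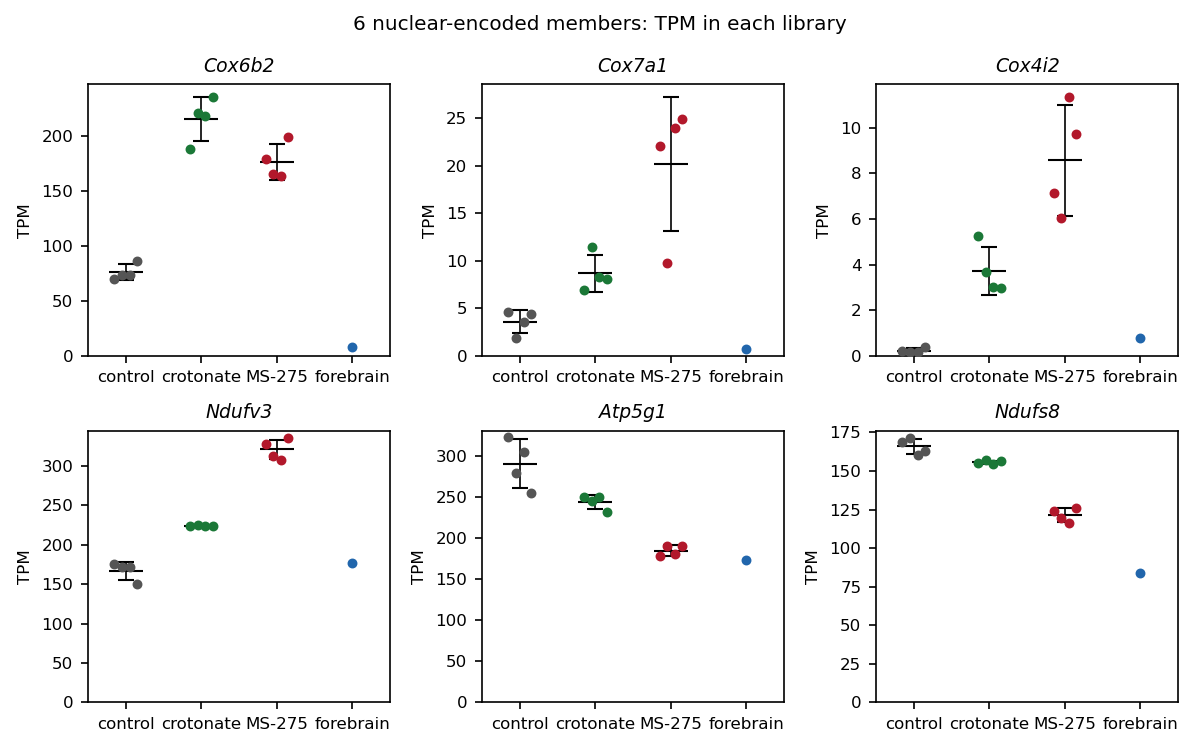
TPM in each library (points) of 6 nuclear-encoded members in control, crotonate and MS-275 NSPCs (n = 4 each) and forebrain (n = 1); the horizontal mark and bar are the mean and SD. Cox6b2, Cox7a1, Cox4i2 and Ndufv3 lie above the controls in every treated library, and Ndufs8 and Atp5g1 below them; in the forebrain Cox6b2 was at 8.21 TPM.

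Among the other, widely used genes placed in complex IV, Cox7a2l rose by 0.42 (adjusted p = 9.6e-06) with crotonate and 0.33 (adjusted p = 2.8e-05) with MS-275. It went from 211 to 233 TPM in the controls to 285 to 316 and 270.3 to 290.4. Cox6a1 rose by 0.33 with crotonate (686 to 782 TPM in the controls and 856 to 968 with crotonate, adjusted p = 0.00011). With MS-275 it rose by 0.13 (adjusted p = 0.028), lost with the replicate number as a block (adjusted p = 0.051), under median-of-ratios scaling (0.05, adjusted p = 0.32) and without control 2 or 3 or MS-275 2 or 4 (0.064 to 0.086). Cox5a, a matrix-facing subunit, fell by 0.17 with crotonate and 0.28 with MS-275 (adjusted p = 0.0022 and 2.1e-05), the former not past the threshold under quantile normalization (-0.06, adjusted p = 0.34). Cox5b, its zinc-binding neighbour, fell by 0.43 with MS-275 (adjusted p = 4.4e-06), with -0.10 for crotonate (adjusted p = 0.087). Cox8a fell by 0.15 with MS-275 (adjusted p = 0.00033).

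ATP synthase mostly fell with MS-275. In that comparison 12 of its 17 nuclear members fell and 2 rose (median -0.24), against 27.6% lower and 37.4% higher over all genes. With crotonate 4 fell and 2 rose (median -0.07), against 15.9% lower and 32.3% higher over all genes. The largest fall was that of Atp5g1, which encodes the membrane ring subunit c together with Atp5g2 and Atp5g3. It was at 323, 279.6, 305 and 256 TPM in the controls, 251, 245, 250.5 and 232 with crotonate and 178, 190.4, 181 and 190.2 with MS-275. No library of one group reached into another. It fell by 0.24 (SE 0.06, adjusted p = 0.0057) with crotonate and 0.65 (SE 0.06, adjusted p = 1.3e-06) with MS-275, and by 0.40 between them (adjusted p = 0.00019). The 3 genes encode the same mature protein. Atp5g1 made up 25.6% ± 0.920 of their RNA in the controls, 21.7% ± 0.616 with crotonate and 16.7% ± 0.303 with MS-275, while Atp5g3 went from 66.7% ± 0.926 to 69.0% ± 1.62 and 75.1% ± 1.10. Atp5g3 itself did not pass (0.04 and 0.13, adjusted p = 0.58 and 0.058), nor did Atp5g2 (0.27 and 0.03, adjusted p = 0.077 and 0.82).

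Atp5a1, the alpha subunit, ranged from 736 to 756 TPM in control, 716 to 738 in crotonate and 568 to 615 in MS-275 libraries. It fell by 0.33 with MS-275 (SE 0.03, adjusted p = 4.4e-07), with -0.04 for crotonate (adjusted p = 0.21). Atp5f1, subunit b of the peripheral stalk, fell by 0.19 and 0.24 (adjusted p = 0.00047 and 4.4e-05). Against this, Atp5d, the delta subunit of the central stalk, rose by 0.11 and 0.23 (adjusted p = 0.0066 and 9.4e-06), the former reaching -0.01 under median-of-ratios scaling. Atp5e, the epsilon subunit beside it, rose by 0.14 and 0.13 (adjusted p = 0.041 for both), both lost under median-of-ratios scaling (0.03 and 0.06, adjusted p = 0.72 and 0.39). The crotonate call was also lost without control 1, 3 or 4, crotonate 2, 3 or 4 or MS-275 3 (adjusted p 0.050 to 0.11), and that of MS-275 without control 1, 3 or 4, MS-275 2, 3 or 4 or crotonate 3 (0.050 to 0.12).

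**Figure D3:**
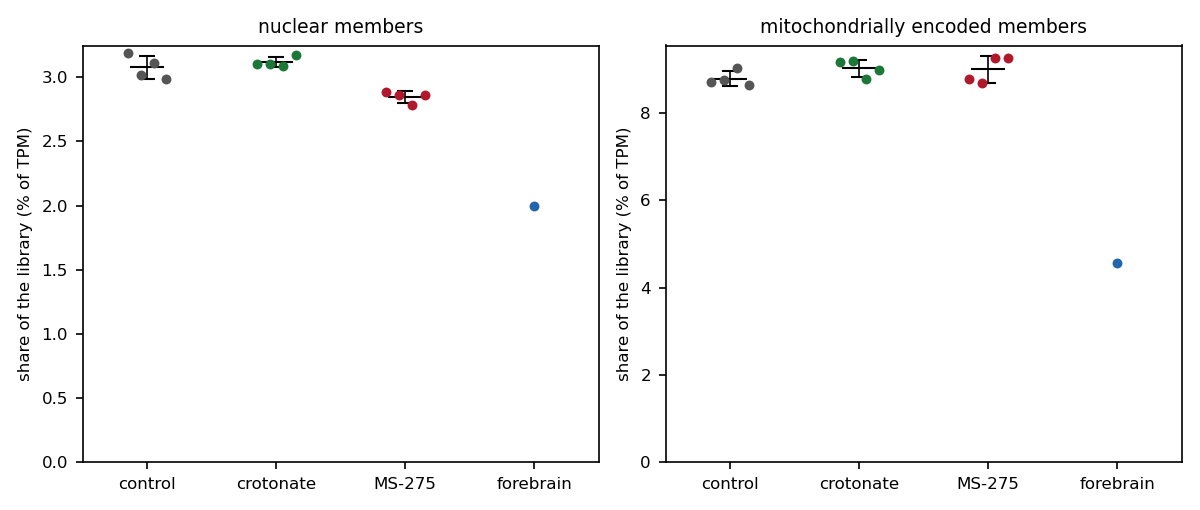
Summed TPM of the nuclear members (left) and the mitochondrially encoded members (right) as a percentage of each library (points; mean and SD where n = 4). The MS-275 libraries lie below every control for the nuclear members, the NSPC groups overlap for the mitochondrially encoded ones, and the forebrain (n = 1) is at 2.00% and 4.56%.

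The 13 mitochondrially encoded members took 8.65% to 9.04% of the library in control libraries, 8.78% to 9.19% in crotonate libraries and 8.69% to 9.27% in MS-275 libraries, which overlap. Beneath this even sum some single transcripts were called in either direction. With crotonate mt-Co1, the catalytic subunit of complex IV, rose and mt-Nd1, mt-Nd2 and mt-Cytb fell, so 1 rose and 3 fell of 13. With MS-275, 4 rose and 1 fell. The called share of the 13 was 30.8% with crotonate and 38.5% with MS-275, below the 48.1% and 65.1% of all genes. The MS-275 balance turned with the scaling, at 1 higher and 3 lower under median-of-ratios scaling and 2 of each under quantile normalization. mt-Co1 was at 23701, 25029, 23459 and 25878 TPM in the controls, 31364, 31103, 30147 and 30771 with crotonate and 26766, 26744, 27073 and 27064 with MS-275. The groups do not overlap. It rose by 0.33 (SE 0.03, adjusted p = 4.6e-06) with crotonate and 0.14 (SE 0.03, adjusted p = 0.0024) with MS-275; quantile normalization, which fixes the value of each rank, ended both calls (0.08, adjusted p = 0.092, and 0.00), and median-of-ratios scaling ended that of MS-275 (0.06, adjusted p = 0.11).

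mt-Nd1 was at 12807, 12900.3, 12816 and 12813 TPM in the controls, 11845, 11049.9, 10986 and 10957 with crotonate and 10452, 10399, 11399.8 and 11324 with MS-275. Every treated library lay below the 4 nearly equal controls, and it fell by 0.20 and 0.24 (adjusted p = 0.00084 and 9.7e-05). mt-Nd2 was at 5732 to 6809.6 TPM in the controls and 5124 to 5431 with crotonate and fell by 0.25 (adjusted p = 0.0080), with -0.11 for MS-275 (adjusted p = 0.15). With the replicate number as a block the latter passed (adjusted p = 0.044), which brings the members that fell with MS-275 to 2. mt-Cytb, the mitochondrial gene of complex III, fell by 0.14 with crotonate (adjusted p = 0.011), with -0.03 for MS-275 (adjusted p = 0.46). The crotonate calls of mt-Nd2 and mt-Cytb were lost under quantile normalization (-0.12 and -0.09, adjusted p = 0.12 and 0.063). The complex I genes mt-Nd4, mt-Nd5 and mt-Nd6 rose by 0.14, 0.25 and 0.15 with MS-275 (adjusted p = 0.0036, 0.0033 and 0.013) and had 0.05, 0.10 and 0.05 with crotonate (adjusted p = 0.28, 0.22 and 0.42). mt-Nd6 is the sole protein gene on its strand. With MS-275, mt-Nd4 and mt-Nd6 no longer passed under median-of-ratios scaling (0.07 each, adjusted p = 0.16 each), and mt-Nd4 was at -0.12 under quantile normalization.

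The remaining 6 genes (mt-Nd3, mt-Nd4l, mt-Co2, mt-Co3, mt-Atp6 and mt-Atp8) passed in neither comparison, and they spread widely within groups. Control mt-Co2 ranged from 251 to 731 TPM and control mt-Co3 from 1149 to 1904, a coefficient of variation of 51.8% and 24.8%, against 0.344% for mt-Nd1. For mt-Atp6, at 3183, 2717, 2306 and 3466 TPM in the controls, RefSeq lists the same name as a synonym of the nuclear pseudogene Gm10925 on chromosome 1 (24613971 to 24614651, 681 bases). That row held 14891 to 19291 TPM over the NSPC libraries, above mt-Atp6 itself. mt-Atp6 alone varied 2.59-fold over the 12 libraries, from 1528 to 3959.9 TPM, while the sum of both varied 1.15-fold, from 18851 to 21769.9. Within the MS-275 group the coefficient of variation was 39.6% for mt-Atp6 and 2.21% for the sum. mt-Nd4l and the nuclear pseudogene Gm10222 (24612404 to 24612700 on chromosome 1, 297 bases) summed to 5862 to 7708 TPM, with mt-Nd4l alone at 1593 to 3104. How the authors' quantification divided reads between mitochondrial genes and nuclear copies is therefore uncertain, and the mitochondrially encoded sum given above leaves out what the copies hold. With each pair added together before the fit, mt-Nd4l with its copy passed for MS-275.

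**Figure D4:**
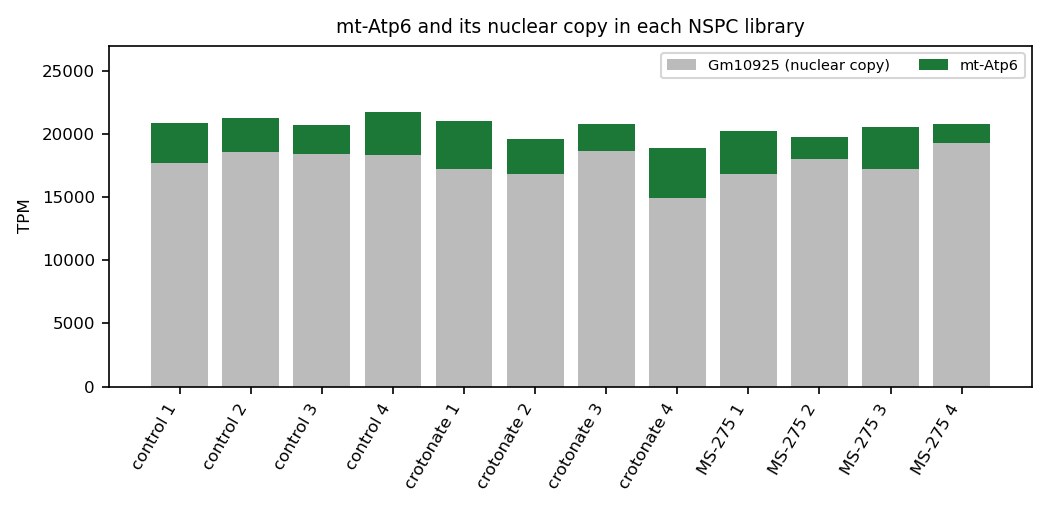
TPM of mt-Atp6 (green) stacked on its nuclear copy Gm10925 (grey) in each of the 12 NSPC libraries, by group and replicate. The green part varies between 1528 and 3959.9 TPM while the full bars stay between 18851 and 21769.9 TPM.

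In the explants, the authors' deposited table gave an adjusted p for 89 members. Of 78 nuclear members 8 were higher and 1 lower with crotonate at 0.05, with a median log2 fold change of 0.04. Of all 14507 genes with an adjusted p 20.2% were called (10.5% higher and 9.75% lower) with a median of 0.00. The 8 were Atp5g3, Atp5l, Cox6c, Ndufb9, Ndufc2, Ndufv2, Ndufv3 and Uqcrc2, and the 1 lower was Uqcrb. By adjusted p the strongest in the authors' deposited table were Cox6c (0.22, SE 0.04, adjusted p = 3.2e-07) and Atp5l, subunit g of ATP synthase (0.19, SE 0.04, adjusted p = 0.00028). Ndufv3 was at 0.23 (SE 0.07, adjusted p = 0.0093) and Uqcrb at -0.14 (SE 0.05, adjusted p = 0.041) in the authors' deposited table. Cox6c also rose with crotonate in NSPCs (0.15, adjusted p = 0.020; lost without control 4 or crotonate 2 or 4, adjusted p 0.052 to 0.059, and under median-of-ratios scaling, adjusted p = 0.61). Atp5l did not pass there (-0.07, adjusted p = 0.36). Cox6b2, Cox7a1 and Cox4i2 had mean normalized counts of 15.1, 1.78 and 9.46 in the authors' deposited table and no adjusted p. By the authors' deposited table Cox4i2 was at 1.43 (SE 0.68, unadjusted p = 0.036), Cox6b2 at -0.14 (SE 0.47) and Cox7a1 at -0.20 (SE 1.29).

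The mitochondrially encoded members were lower in the explants: of 11 with an adjusted p, 7 were lower and 1, mt-Atp8, higher (0.10, SE 0.02, adjusted p = 2.3e-09 in the authors' deposited table). By the authors' deposited table mt-Nd6 was at -0.83 (SE 0.05, adjusted p = 3.9e-65) and mt-Nd5 at -0.69 (SE 0.02). mt-Nd1 was at -0.32 (SE 0.02), mt-Nd2 at -0.21, mt-Nd4 at -0.20, mt-Co1 at -0.17 (SE 0.01, adjusted p = 6.2e-37) and mt-Cytb at -0.09 in the authors' deposited table. The 2 ribosomal RNAs of mitochondrial DNA, mt-Rnr1 and mt-Rnr2, were at -0.34 and -0.35 in the authors' deposited table. In NSPCs mt-Rnr2 was at 899 to 1039 TPM in control, 615 to 758 in crotonate and 631 to 756 in MS-275 libraries, every treated library below every control. mt-Rnr1 was at 259 to 356, 242 to 274 and 212 to 233 TPM, of which the crotonate range overlaps that of the controls. Of the genes with wide spread in NSPCs, mt-Atp6, mt-Co2 and mt-Co3 had the widest errors in the authors' deposited table (SE 2.10, 1.57 and 2.21). The errors of mt-Nd4l and mt-Nd3 were also wide in the authors' deposited table (SE 0.69 and 0.50), while mt-Atp8 had an SE of 0.02 there. mt-Nd1, mt-Nd2 and mt-Cytb were lower with crotonate in both systems, while mt-Co1 was higher in NSPCs and lower in explants. That difference was not tested, and the 2 systems differ in strain, in the RNA named by the labels (total against polyA) and in the values deposited.

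**Figure D5:**
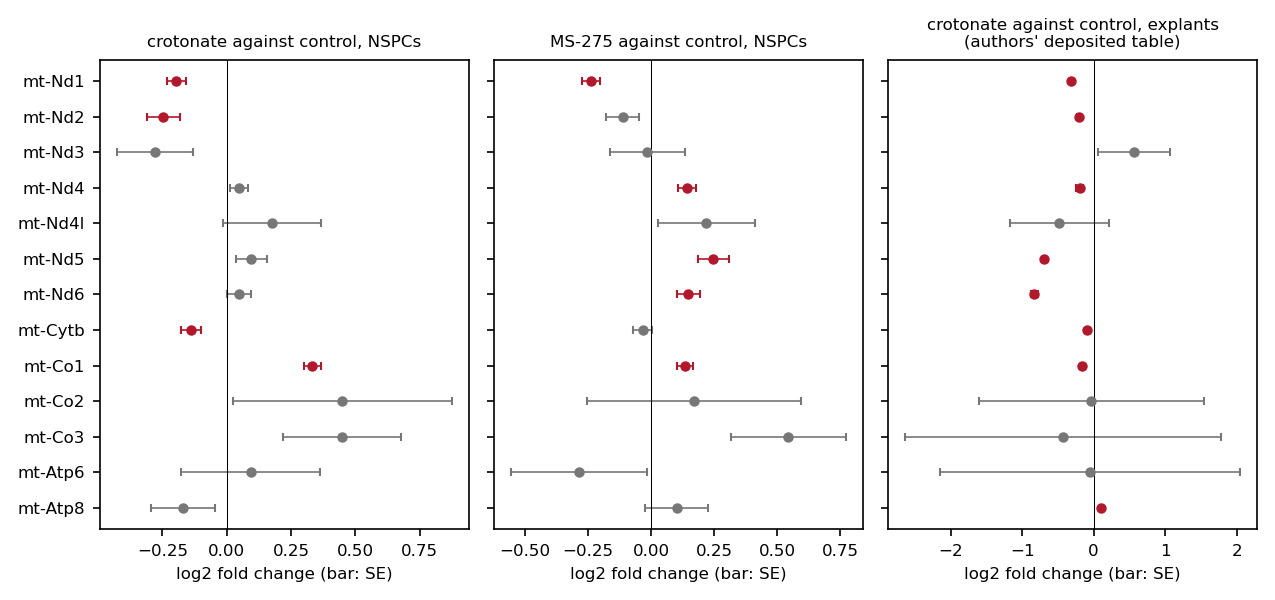
Log2 fold change (points) and SE (bars) of the 13 mitochondrially encoded members for crotonate and MS-275 in NSPCs (limma on TPM + 1) and for crotonate in explants (the authors' deposited table); red points passed an adjusted p of 0.05, and the 3 horizontal scales differ. mt-Nd1 lies left of 0 in all 3, mt-Co1 lies right of 0 in NSPCs and left in explants, and mt-Co2, mt-Co3 and mt-Atp6 have the widest bars.

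Respiratory chain RNA was a smaller share of the forebrain library than of the NSPC libraries. In its 1 library the nuclear members summed to 2.00% of TPM and the mitochondrially encoded ones to 4.56%. Of 93 tested members 75 lay below the range of the 4 controls, 9 above and 9 within, with a median ratio to the control mean of 0.70 for nuclear and 0.46 for mitochondrially encoded members. Over all genes tested 51.6% lay above and 33.6% below the controls, with a median ratio of 1.14. The 9 above were Atp5e, Cox4i2, mt-Atp8, Ndufa2, Ndufa6, Ndufa7, Ndufb7, Ndufb9 and Ndufv3. Ndufc2 (215 TPM against 837 to 951) and Cox8a (435 against 1486 to 1593) were among the lowest relative to the controls. The mitochondrially encoded values leave out the nuclear copies Gm10222 and Gm10925. Added to Gm10222, mt-Nd4l was at 7279 TPM in the forebrain, inside the control range of 5862 to 7292. Added to Gm10925, mt-Atp6 was at 9195 TPM, still below the controls (20686 to 21769.9). Erythroid markers summed to 11550 TPM in the forebrain and to at most 1.79 in any NSPC library. Neuron markers summed to 3711 TPM in the forebrain against 901 to 981 in the controls. Gap43 and Map2 held most of the control sum (573 to 646 and 294 to 313 TPM). Gap43 was lower in the forebrain, at 209 TPM, and every other neuron marker was higher there. The part of these cell type markers in the difference was not tested.

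Genes that build and feed the chain were counted from lists beside the members. Of 47 tested assembly factors, 13 rose and 4 fell with crotonate (median 0.07) and 14 rose and 10 fell with MS-275 (median -0.01). Sdhaf4, which helps assemble Sdha, rose by 0.72 and 0.68 (adjusted p = 3.2e-05 and 2.2e-05), from 24.2 ± 2.61 TPM to 40.5 ± 4.05 and 39.3 ± 3.32. Uqcc2, for complex III, rose by 0.37 with crotonate (adjusted p = 9.3e-06), and Ttc19, also for complex III, by 0.50 with MS-275 (adjusted p = 0.00011). Ecsit, for complex I, fell by 0.25 and 0.63 (adjusted p = 0.0041 and 1.3e-06). Sco1, a copper carrier for complex IV, fell by 0.21 with crotonate (adjusted p = 0.020), and Ndufaf4, for complex I, by 0.48 with MS-275 (adjusted p = 6.7e-06).

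Of 34 genes of mitochondrial DNA expression and biogenesis, 10 rose and 7 fell with crotonate (median -0.02), while 3 rose and 15 fell with MS-275 (median -0.15). Gabpa, the DNA-binding part of GABP, fell by 0.76 with MS-275 (50.3 ± 1.19 to 29.4 ± 1.40 TPM, adjusted p = 1.4e-08). Pprc1, a coactivator of respiratory gene transcription, fell by 0.70 and 1.23 (65.1 ± 12.4 TPM to 39.3 ± 2.87 and 26.8 ± 0.642, adjusted p = 0.00022 and 7.0e-07). Top1mt, the mitochondrial topoisomerase, rose by 0.85 and 0.74 (adjusted p = 4.2e-05 and 5.8e-05). Polg, the mitochondrial DNA polymerase, fell by 0.32 with crotonate (adjusted p = 0.00058), Mterf1a rose by 0.43 with crotonate (adjusted p = 0.00060) and Mterf2 by 0.56 with MS-275 (adjusted p = 0.0063).

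Of 79 mitochondrial ribosomal proteins, which translate the 13 transcripts, 10 rose and 15 fell under crotonate (median -0.04), and under MS-275 6 rose and 41 fell (median -0.15). Mrpl12 fell by 0.71 and Mrpl18 by 0.81 with MS-275 (adjusted p = 3.0e-08 and 3.9e-07), and Mrps18b fell by 0.61 and Mrpl37 by 0.30 with crotonate (adjusted p = 2.5e-05 and 6.0e-05). Mrpl33 and Mrps6 rose by 0.41 each with crotonate (adjusted p = 0.00015 and 0.00029), and Mrpl10 and Mrpl34 by 0.48 and 0.25 with MS-275 (adjusted p = 1.3e-06 and 6.0e-05). Of 22 genes of the citrate cycle and pyruvate dehydrogenase, 5 rose and 8 fell under crotonate (median -0.05), and 3 rose and 14 fell under MS-275 (median -0.18). Fh1 (fumarase) and Idh3b fell by 0.50 and 0.41 with MS-275 (adjusted p = 7.6e-07 and 9.8e-07), and citrate synthase, Cs, by 0.20 with crotonate (adjusted p = 0.00033). Pdp1, the phosphatase that activates pyruvate dehydrogenase, rose by 1.00 and Idh2 by 0.32 with MS-275 (adjusted p = 6.4e-07 and 2.3e-06), and Mpc2, of the pyruvate carrier, by 0.36 with crotonate (adjusted p = 0.00054). The background shares given above are those for these lists too. In the explants the authors' deposited table called 2 higher and 3 lower of 48 assembly factors, 2 and 1 of 33 genes of mitochondrial DNA expression, 4 and 3 of 80 ribosomal proteins and 5 and 2 of 22 citrate cycle genes. Among them were Cox20, an assembly factor of complex IV (0.42, SE 0.10), and Nrf1, which encodes the factor of the NRF1 site (-0.21, SE 0.05), in the authors' deposited table.

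Of 23 electron carriers and coenzyme Q genes, crotonate gave 9 higher and 3 lower (median 0.09) and MS-275 9 and 7 (median 0.00). All-gene shares were 32.3% higher and 15.9% lower with crotonate (median 0.09). They were 37.4% and 27.6% with MS-275 (median 0.08), so the counts of this list are near the background. Coq7, a hydroxylase of coenzyme Q synthesis, fell by 0.45 and 1.40 (113 ± 5.61 TPM to 82.7 ± 1.99 and 42.3 ± 1.37, adjusted p = 3.5e-06 and 2.0e-10). Cyc1, the cytochrome c1 of complex III, which the name rule leaves out, fell by 0.47 with MS-275 (adjusted p = 4.6e-07). Etfdh, which passes electrons from fatty acid oxidation to ubiquinone, rose by 0.56 with MS-275 (adjusted p = 4.5e-08), and Atpif1, the inhibitor of ATP synthase, by 0.35 with crotonate (adjusted p = 3.1e-05). Higd1a, linked to complex IV and low oxygen, fell by 0.43 with crotonate (adjusted p = 0.0056) and was at -0.56 (SE 0.08) for explants in the authors' deposited table.

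Hypoxia-inducible genes were counted because Cox4i2 and Ndufa4l2 are among those known to answer low oxygen. In NSPCs 8 of 25 rose and 7 fell with crotonate (median 0.00), and with MS-275 10 rose and 7 fell (median 0.27). The shares over all genes were 32.3% higher and 15.9% lower with crotonate, and 37.4% and 27.6% with MS-275. Both MS-275 counts and the rises with crotonate are thus near the background. Car12 rose by 1.45 and 1.43 (adjusted p = 8.1e-08 and 2.1e-08), Slc2a3 by 1.19 with crotonate (adjusted p = 6.0e-06) and Bnip3l by 1.17 with MS-275 (adjusted p = 1.3e-07). Ldha fell by 0.45 with crotonate (adjusted p = 5.5e-05) and Hk2 by 1.03 with MS-275 (adjusted p = 4.7e-07). In the explants 2 of 25 were higher and 15 lower in the authors' deposited table, against 10.5% and 9.75% of all genes. Their median was -0.31 against 0.00 over all genes. Ddit4 was at -1.09 (SE 0.03) and Vegfa at -0.95 (SE 0.04) in the authors' deposited table, and Mxi1 at 0.23 and Ndrg1 at 0.20 were the higher ones.

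Acylation peaks were read at the starts of 66 tested members with a RefSeq start, within 1 kb on each side, from 1 library per antibody and treatment and so without a test. In control NSPCs 60 of 66 had a Kac (histone lysine acetylation) peak and 56 a Kcr peak, 90.9% and 84.8%, against 70.8% and 62.6% of 10804 tested genes with an entry. With crotonate, 51 had a Kac peak and 55 a Kcr peak (77.3% and 83.3%, against 67.1% and 72.0% of genes). With MS-275 the lists were much shorter (7555 Kac and 5845 Kcr peaks against 23427 and 17669 in the controls), and 8 and 9 members had one (12.1% and 13.6%, against 20.1% and 18.4% of genes). In the forebrain 64 of 66 had an H3K9ac peak and 62 an H3K9cr peak (97.0% and 93.9%, against 87.9% and 77.8%).

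Between the control and crotonate lists, 4 members gained a Kcr peak and 5 lost theirs (of 66, against 16.04% and 6.60% of genes), and 2 gained and 11 lost a Kac peak (against 8.64% and 12.3% of genes). Members more often had a control peak (84.8% Kcr and 90.9% Kac, against 62.6% and 70.8% of genes). These shares therefore do not compare members and genes at like starts. Of the members without a control peak, 4 gained a Kcr peak and 6 did not, and 2 gained a Kac peak and 4 did not. Those that gained Kcr were Cox6b2, Cox7c, Ndufb11 and Ndufb6, and those that gained Kac were Cox6b2 and Ndufv1. Cox6b2 was the 1 member with both, and it had no peak in the control, MS-275 or forebrain lists. Its Kac peak with crotonate lies at chr7:4753204-4753428 and its Kcr peak at chr7:4753219-4753442, from 334 to 110 and from 348 to 125 bases before the start, so both cover the GC box in the sequence printed above. Cox7c, Ndufb11 and Ndufb6 had crotonate log2 fold changes of 0.01, -0.06 and -0.10 that did not pass (adjusted p = 0.94, 0.42 and 0.29), and Ndufv1 had -0.02 (adjusted p = 0.80). Ndufv3, which rose with both treatments, had a Kac and a Kcr peak in the control lists and in the forebrain and none with crotonate or MS-275. Cox7a1 had none in any of the 8 lists, and Cox6a1 kept both marks upstream of its start with crotonate. Atp5g1 had 2 Kac and 2 Kcr peaks in the control lists. With crotonate those just after the start (Kac from 49 to 243 and Kcr from 2 to 202 bases after it) were not called, and 1 upstream peak of each mark was called (Kac from -789 to -528 and Kcr from -705 to -522 bases relative to the start). The peak lists of treated and control cells differ in length, and an absent peak says only that none was called.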

How the data were processed

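RNA-seq values were the TPM of 53974 genes in 13 libraries, quantified by the authors with Salmon 1.0.0 on GRCm38, per the submitters' processing notes. Every column was used (0 were left out), and columns summed to 998182 to 999495. The number of reads behind a value is unknown. For the explants, the authors' deposited table gives a signal per gene (mean normalized count), a log2 fold change with its SE, a score (fold change over SE) and p-values from DESeq2 1.26.0, in which an adjusted p of 1 stands for a gene that got none. Peaks came from Bowtie2 2.3.5.1 and MACS2 2.2.5, per the submitters' processing notes. The forebrain lists carry a fold enrichment, a score and −log10 p and q values as deposited, and the NSPC lists carry positions only. No threshold is given in the sources used here.

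TPM + 1 was taken to log2, genes with at least 1 TPM in 4 NSPC libraries were kept (14857), and limma 3.58.1 in R 4.3.3 was fitted to the 3 groups together, with a trend and Benjamini-Hochberg adjustment over all genes (threshold 0.05). The method was tested on simulated data. Peaks were overlapped with gene starts by at least 1 base with bedtools 2.31.1. Shares, sums, forebrain values and peaks had no test. The lowest correlation within a group was 0.981. Same-numbered libraries of different groups deviated together over genes (12 correlations of 0.119 to 0.241, against -0.197 to 0.0993 for the 36 with other numbers), so the replicate number of the labels was also fitted as a block. The alternatives were median-of-ratios scaling, quantile normalization, rescaling to nuclear genes, a pseudocount of 0.1, other filters, no trend, 2 groups per fit and each library left out.

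Named members were all mitochondrially encoded genes, the isoform families, the 4 largest changes per direction and contrast, 2 per direction, complex and contrast by adjusted p, and 3 per direction in explants. From each pathway list 2 per direction came by adjusted p. The partners of named genes and the members that gained a peak were added after their values were seen. The members and lists were chosen with earlier results of these data known.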

Additional observations from a re-analysis of the deposited data

Results flagged for a closer look

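Among 180 groups of 4 libraries (the members named by the rule and the summed sets, in each NSPC group), 12 held 1 library whose gap to its nearest neighbour took up more of the whole range than Dixon's 95% limit allows. Chance alone marks about 1 group in 20. The values are TPM.

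In the controls, Cox4i2 was at 0.385 in replicate 4 and 0.182 to 0.194 in the others, and Ndufv3 was lowest in the same library, at 151 against 171 to 175. Uqcrb was at 514 in control 3 against 497 to 499. mt-Nd1 was at 12900.3 in control 2 against 12807 to 12816.

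With crotonate, Ndufa5 was at 109 in replicate 1 against 82.9 to 86.9, and mt-Nd1 at 11845 in the same library against 10957 to 11049.9. Ndufa5 is among the members whose calls were lost without single libraries.

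With MS-275, Cox7b2 was at 0.375 and Cox8b at 0.970 in replicate 1, each listed at 0 in the other 3 libraries. Ndufc2 was at 1006 in replicate 2 against 1094 to 1098. Cox8a was at 1351 in replicate 3 against 1394 to 1399.9, and the summed nuclear genes of complex III were at 2728 in that library against 2839.5 to 2859. Sdhb was at 179 in replicate 4 against 161 to 163.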

How the results depend on the processing

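Of 659 alternatives to 105 counts and values, 614 stayed within 1.5 times (counts) or 1 SD. Of those past it, median-of-ratios scaling gave 10 higher and 29 lower nuclear members with crotonate, and 4 were lower with quantile normalization and 6 without the trend. Mitochondrially encoded members lower with crotonate were 1 without the filter and 1 with quantile normalization. With MS-275 they were 1 higher and 3 lower under median-of-ratios scaling, 2 higher without the filter, 2 higher and 2 lower with quantile normalization and 2 lower with the replicate block. Of MS-275 against crotonate they were 4 higher with median-of-ratios scaling and with the block, 1 higher after rescaling to nuclear genes, 0 higher without the trend, 0 higher and 2 lower with quantile normalization, and 0 in either direction in limma without the filter. The cause was not tested.

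Leaving out single libraries gave 6 to 14 nuclear members lower with crotonate (6 without crotonate 3, 7 without control 1). Mitochondrially encoded members higher with crotonate were 1 to 2 (2 without control 4), lower with MS-275 1 to 2 (2 without MS-275 3), and higher with MS-275 than with crotonate 0 to 4 (0 without control 2, MS-275 3 or 4 or crotonate 4, 1 without control 1 or crotonate 3, and 4 without control 4).

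With the replicate block, nuclear members were 21 higher and 14 lower with crotonate, 16 and 41 with MS-275 and 7 and 44 between treatments. Of 150 named results the block changed 8 calls. Ndufb10 passed with crotonate (adjusted p = 0.036), mt-Nd2 passed with MS-275 (0.044) and Cox6a1 and Cox6c did not (0.051 and 0.056). Between treatments Cox4i1, mt-Nd2, mt-Nd5 and Sdhd passed (0.038, 0.031, 0.038 and 0.010). For the explants, no paired analysis was possible because their table holds no values per library.

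Over all alternatives to the named results, 3083 kept direction and side of the threshold, 146 lost the call, 65 gained one and 6 changed sign. Median-of-ratios scaling gave -0.0099 for Atp5d and -0.082 for Cox8a with crotonate. Quantile normalization gave 0.10 for Cox6b1 and -0.12 for mt-Nd4 with MS-275, and -0.23 for mt-Nd2 and -0.35 for mt-Nd4 between treatments. Adding the nuclear copies was chosen after seeing the data.

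In the explants, 14 nuclear members were higher and 2 lower at an adjusted p of 0.1, 5 and 0 at 0.01, and 2 lower among genes with at least 50 normalized counts. Rescaled to nuclear genes, the forebrain was above the controls for 5 nuclear and 0 mitochondrially encoded members, with median ratios of 0.668 and 0.444. From 250 bases before to 50 after the start, 29 (Kac) and 31 (Kcr) of 66 members had a peak with crotonate, 35 (Kcr) in the controls and 3 of each mark with MS-275. The shares over genes in that window were 42.3% (Kac) and 42.1% (Kcr) with crotonate and 36.5% (Kcr) in the controls. With MS-275 they were 8.57% (Kac) and 6.51% (Kcr). The members with crotonate were thus near the genes in the narrow window. The depth of the libraries is not known from TPM, so counting error could not be given.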
